A study of Drosophila melanogaster with 10 samples.

Results

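The late part of gut tumour growth was followed by RNA-seq of Drosophila thoraces at day 14 and at day 8 of tumour induction, 2 of the 10 libraries of a time course. Both libraries came from adult males that carry esg-Gal4, tub-Gal80ts and UAS-GFP over UAS-yki-act, called Esg>yki[S3A] below, and each pooled 8 to 10 thoraces. The esg driver is active in gut progenitor cells. At 29 °C the temperature-sensitive Gal80 repressor is inactive and an activated Yorkie is made in those cells. The crosses were raised at 18 °C, so both groups met 29 °C only as adults. The other Esg>yki[S3A] libraries were taken at days 2, 20, 26, 32 and 38, with the flies back at 18 °C after day 14. The 3 control libraries, with the same driver, repressor and GFP but a wild-type chromosome in place of UAS-yki-act, were taken at days 2, 14 and 38. No control library of day 8 is among them, so the tumour and 6 further days of adult life at 29 °C cannot be told apart. Each condition is 1 library, so no difference between days has a replicate check. Each interval of a log2 ratio given below is a 95% interval of the read ratio (exact, Clopper-Pearson). These intervals, and the Wilson intervals of shares of reads, cover counting error only.

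The thorax of a fly is mostly flight muscle, a tissue that burns sugar through glycolysis and packs its fibres with mitochondria. It also holds fat body, hemocytes (blood cells), nerve cord, glia and trachea. Overactive Yorkie in gut progenitors is known to produce tumours that waste muscle, fat and other organs at a distance. Loss of fat and lower insulin signalling are known features of such hosts. In bulk tissue, fewer cells of a type and less RNA per cell cannot be told apart.

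The library of day 14 held 31588673 reads on genes and that of day 8 held 25833456. The share of reads on genes of the mitochondrial genome was 46.94% at day 14 (Wilson 95% interval 46.92 to 46.96%). At day 8 it was 32.47% (32.45 to 32.49%). In the other 8 libraries it lay between 24.3% and 30.9%, so day 14 stood apart from the whole series. This share pulls the level of every nuclear gene down at day 14 when levels are scaled to all reads. Levels are therefore given as RPKM over the reads on all genes, and each call was also made with 4 other scalings. These were the reads without mitochondrial genes, the reads on nuclear protein-coding genes, edgeR's TMM and DESeq2's median of ratios. They add between 0.35 and 0.38 to every log2 ratio given below. The 8406 of 17563 genes that reached 2 RPKM in either library were compared, and their median log2 ratio of day 14 over day 8 was −0.36. With the other scalings the median of these genes lay between −0.01 and 0.02.

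A gene is called higher or lower where its log2 ratio was at least 1 or at most −1, a 2-fold difference, under all 5 scalings. By this rule 209 genes were higher at day 14 (2.49% of those compared) and 478 were lower (5.69%). With the reads on all genes alone, the same 209 genes were higher and 1216 were lower (14.5%). The rule is thus stricter for higher than for lower genes, because the other scalings add to every log2 ratio. An excess of lower calls, or a list without a higher call, has to be read with this limit. Scaling to the reads without mitochondrial genes gave 530 higher (5.85%) and 569 lower genes (6.28%) of 9061. The direction in which most genes moved thus depended on the scaling, and the distance of a gene or list from the median of all genes compared did not. Of the 209 higher genes, 124 had their highest level of the 7 Esg>yki[S3A] libraries at day 14 and 49 at day 20. Of the 478 lower genes, 409 had their lowest level of these libraries at day 14. These counts are helped by the choice of the genes and are given as a description. They rank RPKM over the reads on all genes, which lowers nuclear genes most at day 14, the library with the largest mitochondrial share.

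**Figure D1:**
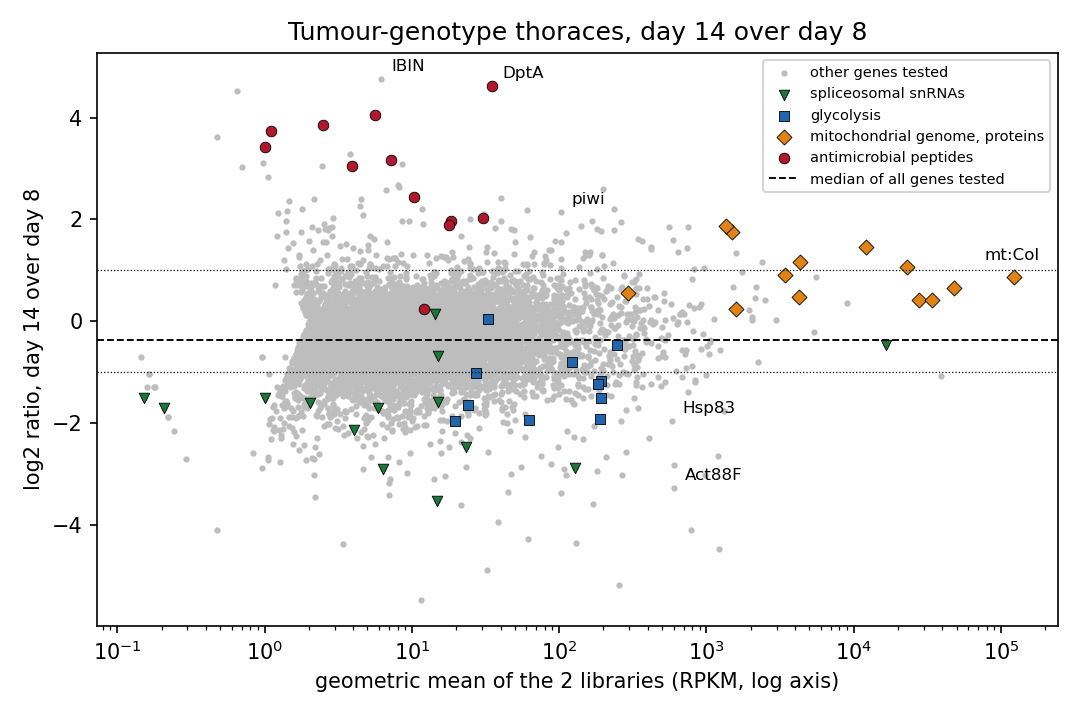
Log2 ratio of day 14 over day 8 against the geometric mean of both libraries in RPKM (log axis), 1 point per gene that reached 2 RPKM in either of them. The dashed line is the median of these genes (−0.36) and the dotted lines mark 1 and −1. Antimicrobial peptide genes other than Drs lie near the top, proteins of the mitochondrial genome at the upper right, and glycolysis genes and snRNAs mostly below the dashed line.

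The tissue label was checked against cell type markers. All 6 flight muscle markers were measured, with a summed level of 1277 RPKM at day 14, against 3257 RPKM at day 8. The 5 testis markers were all under 1 RPKM in both libraries. The 3 gut progenitor markers summed to 3.51 RPKM at day 14 and 3.11 RPKM at day 8, and the 6 enterocyte markers, of which 4 were under 1 RPKM in both libraries, summed to 8.65 RPKM at day 14 and 14.0 RPKM at day 8. Markers of both gut cell types were thus low. Of 44 digestive enzyme genes, 7 were compared, and the list summed to 159 RPKM at day 14 and 227 RPKM at day 8. Mal-A5, a maltase, was the 1 lower gene among them, with 16.7 RPKM at day 14 and 59.7 RPKM at day 8. The yki gene had 5.69 RPKM (274 reads) at day 14, against 7.01 RPKM (276 reads) at day 8, a log2 ratio of −0.30. The transgene is driven in the gut, so this thoracic level does not check the genotype.

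Antimicrobial peptide genes, whose products are secreted by fat body and epithelia when the Imd or Toll pathway senses bacteria or fungi, were the group that stood farthest above the rest. Of 14 such genes, 12 were compared, 11 were higher at day 14 and none was lower. Their median log2 ratio was 3.11, against −0.36 for all genes compared. It was 2.08 with a pseudocount of 1 RPKM and 2.45 with a minimum of 10 RPKM. CecA1, CecA2, CecC, Dro and Def reached the minimum of 2 RPKM at day 14 only. Their entry thus depended on a high level at day 14, which raises the count and the median. The minimum of 10 RPKM has the same limit. DptA, DptB, AttA, AttB, AttC and Mtk reached 2 RPKM in both libraries and were higher too. Their summed level was 419 RPKM at day 14 and 62.9 RPKM at day 8. The other 2, AttD and CecB, stayed under 2 RPKM in both libraries, with 12 and 18 reads at day 14 and none at day 8.

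DptA, a diptericin that acts mainly on Gram-negative bacteria (chromosome 2R, 18865765 to 18866260 in the Release 6 assembly), had 175 RPKM (2735 reads) at day 14, against 7.10 RPKM (91 reads) at day 8. The log2 ratio was 4.62 (4.32 to 4.94). Its neighbour DptB had 61.2 RPKM (868 reads) at day 14 and 15.1 RPKM (175 reads) at day 8. Both diptericins were higher, DptA by the wider margin. The cecropin CecA1 had 22.9 RPKM (245 reads) at day 14, against 1.37 RPKM (12 reads) at day 8. Its neighbour CecA2 had 9.45 RPKM (106 reads) at day 14 and 0.654 RPKM (6 reads) at day 8. CecC had 49 reads at day 14 and 3 at day 8, a log2 ratio of 3.74 with an interval of 2.11 to 6.07. All 3 cecropins compared were higher, on few reads at day 8.

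The attacins are glycine-rich peptides. AttB had 21.7 RPKM at day 14 and 2.42 RPKM at day 8, AttA had 24.3 RPKM at day 14 and 4.46 RPKM at day 8, and AttC had 34.6 RPKM at day 14 and 9.33 RPKM at day 8. AttA and AttB are near copies that lie side by side, as are the cecropins, so reads could be split between them in a way the sources do not state. The defensin Def had 11.3 RPKM at day 14 and 1.36 RPKM at day 8. The metchnikowin Mtk had 36.7 RPKM at day 14 and 9.39 RPKM at day 8. Drosocin (Dro) had 3.32 RPKM (79 reads) at day 14 and 0.308 RPKM (6 reads) at day 8. Every one of these was higher at day 14 under each scaling. Drosomycin (Drs), the standard reporter of Toll signalling, was the exception, with 13.1 RPKM (160 reads) at day 14, against 11.1 RPKM (111 reads) at day 8, a log2 ratio of 0.24.

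Over the whole series the summed level of these genes in Esg>yki[S3A] thoraces was 36.9, 62.9, 419, 3101, 67.5, 194 and 45.3 RPKM on days 2, 8, 14, 20, 26, 32 and 38. In control thoraces it was 638, 22.3 and 35.1 RPKM on days 2, 14 and 38. Day 14 was thus above day 8 and above the control of the same day, below day 20, and below the control of day 2. Drs alone held 401 RPKM of the sum in the control of day 2, and other members differed in order. Mtk and AttC had 53.5 and 56.0 RPKM in that control, above the 36.7 and 34.6 RPKM of Esg>yki[S3A] at day 14. DptA had 15.6 RPKM there, far below its 175 RPKM. High levels of some of these genes were therefore not limited to tumour-bearing flies in these libraries.

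**Figure D2:**
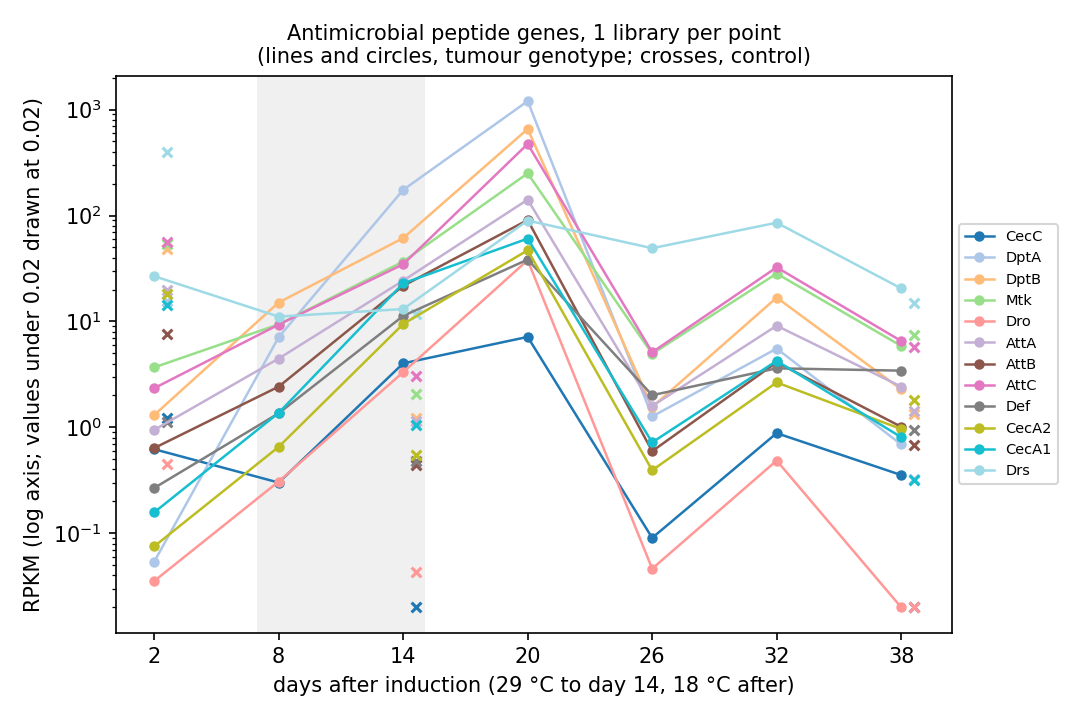
RPKM (log axis) of the 12 antimicrobial peptide genes compared, by days after induction, 1 library per point, with lines and circles for Esg>yki[S3A] and crosses for control thoraces, and days 8 to 14 shaded. Each line but that of Drs climbs steeply across the shaded step, and all peak at day 20. The control of day 2 lies above Esg>yki[S3A] at day 14 for Drs, Mtk and AttC among others, and below it for DptA.

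Other genes were higher beside this group. IBIN, a short gene known to be induced by infection (chromosome 2R, 17671068 to 17671295), had 32.2 RPKM (232 reads) at day 14, against 1.19 RPKM (7 reads) at day 8. Its log2 ratio of 4.76 (3.70 to 6.09) was the largest increase among genes with at least 10 RPKM. CG45045, which the sources neither name nor place in the immune response, had 11.96 RPKM (96 reads) at day 14 and 1.22 RPKM (8 reads) at day 8. The gene pirk, an inhibitor of the Imd pathway, had 9.35 RPKM at day 14 and 2.94 RPKM at day 8, a log2 ratio of 1.67. It was the only one of 23 receptors and pathway genes of Imd and Toll to be called, and their median was −0.13.

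The Bomanins, short peptides induced through Toll, were split. Of 11 compared, 3 were higher and 2 were lower. BomS1 had 307 RPKM at day 14 and 124 RPKM at day 8, BomS3 had 127 RPKM at day 14 and 58.8 RPKM at day 8, and BomT1 had 13.4 RPKM at day 14 and 5.36 RPKM at day 8. On the other side, BomBc2 had 55.7 RPKM at day 14, against 154 RPKM at day 8, and BomBc3 had 33.0 RPKM at day 14, against 89.2 RPKM at day 8. The family thus had called members on both sides. Drsl4, a Drosomycin-like gene, had the steepest fall of the nuclear protein-coding genes, to 6.18 RPKM (63 reads) at day 14, against 75.3 RPKM (628 reads) at day 8. It had 736 RPKM at day 2 and between 496 and 588 RPKM in the Esg>yki[S3A] libraries from day 26 on. TotA, a stress peptide of the JAK-STAT pathway, had 25.7 RPKM at day 14 and 98.01 RPKM at day 8. Of 13 JAK-STAT and Turandot genes compared, none was higher and 2 were lower.

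Hemocyte and melanization genes were lower in part. Of 12 compared, 1 was higher and 4 were lower, and the median log2 ratio was −0.88. All 3 prophenoloxidases, the enzymes that make melanin at wounds, were among the 4. PPO2, an enzyme of crystal cells, had 2.15 RPKM (155 reads) at day 14, against 22.9 RPKM (1350 reads) at day 8, a log2 ratio of −3.41 (−3.66 to −3.17). PPO1, also of crystal cells, had 6.42 RPKM (474 reads) at day 14 and 38.7 RPKM (2340 reads) at day 8. PPO3, of lamellocytes, had 0.355 RPKM (25 reads) at day 14 and 2.61 RPKM (150 reads) at day 8. Hemolectin (Hml), a clotting protein of plasmatocytes, had 34.2 RPKM at day 14 and 96.3 RPKM at day 8. Hemese (He), a surface protein of hemocytes, went the other way, with 5.83 RPKM (124 reads) at day 14 and 1.44 RPKM (25 reads) at day 8, but its exons overlap an antisense gene. The 5 hemocyte markers summed to 58.2 RPKM at day 14, against 149 RPKM at day 8, and 2 of them were lower.

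Genes of the extracellular matrix were also lower in part. Of 14 genes for matrix proteins and their proteases, 3 were lower under every scaling, 9 were lower with the reads on all genes, and none was higher. Both chains of collagen IV, the main collagen of fly basement membranes, were lower. These are vkg and Col4a1, which lie head to head on chromosome 2L (5012144 to 5028191 and 5029609 to 5037279). vkg had 6.94 RPKM (1425 reads) at day 14, against 35.3 RPKM (5928 reads) at day 8, and Col4a1 had 6.12 RPKM (1191 reads) at day 14, against 25.1 RPKM (3994 reads) at day 8. Peroxidasin (Pxn), which crosslinks collagen IV and is also one of the hemocyte markers, had 4.43 RPKM at day 14 and 17.8 RPKM at day 8. The matrix protease Mmp1 and its inhibitor Timp did not follow, with log2 ratios of 0.67 and 0.47. With the 4 other scalings Mmp1 lay between 1.02 and 1.05, past the cut-off for higher genes. In the control of day 14, vkg had 7.85 RPKM and Col4a1 had 4.89 RPKM, close to the Esg>yki[S3A] library of that day.

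The mitochondrial genome encodes 13 proteins of the respiratory chain, and all 13 had a log2 ratio above 0 under each scaling. Their median was 0.87, and 5 were higher under every scaling. Their summed level was 374700 RPKM at day 14 and 217600 RPKM at day 8. mt:CoI, the catalytic subunit of complex IV, alone held 8018765 reads at day 14 and 3578626 at day 8, which is 165300 RPKM at day 14 and 90190 RPKM at day 8. Its log2 ratio was 0.87, under the cut-off when scaled to all reads.

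The 3 largest ratios were those of complex I subunits. mt:ND6 had 2618 RPKM at day 14 and 711 RPKM at day 8, a log2 ratio of 1.88. mt:ND3 had 2726 RPKM at day 14 and 806 RPKM at day 8, and mt:ND1 had 20090 RPKM at day 14 and 7299 RPKM at day 8. mt:ND2 and mt:CoIII had log2 ratios of 1.17 and 1.06. The smallest differences were those of mt:ATPase8, at 0.25, and of mt:CoII and mt:Cyt-b, both at 0.42. Transcripts of one genome thus differed unequally. The large ribosomal RNA of the mitochondrion, mt:lrRNA, had 27170 RPKM at day 14 and 57100 RPKM at day 8, a log2 ratio of −1.07. The small one, mt:srRNA, had 2860 RPKM at day 14 and 2151 RPKM at day 8. The libraries had been depleted of rRNA, and the part of that step in these values was not tested.

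Nuclear genes for the same respiratory chain did not share the increase. Of 70 compared, 1 was higher and 7 were lower, and their median log2 ratio was −0.71. COX7C, a small subunit of complex IV, had 82.2 RPKM (2215 reads) at day 14, against 522 RPKM (11497 reads) at day 8. The complex I subunit ND-39 had 70.8 RPKM at day 14 and 216 RPKM at day 8, and UQCR-C2, a core protein of complex III, had 192 RPKM at day 14 and 545 RPKM at day 8. ND-B15, also of complex I, was the one higher gene, with 63.7 RPKM at day 14 and 28.7 RPKM at day 8. The summed level of the nuclear subunits was 59160, 17470, 10720 and 10880 RPKM on days 2, 8, 14 and 20. In control thoraces it was 71680 and 20030 RPKM on days 2 and 14. The step to day 14 was thus smaller than the one before it, and controls had a like drop from day 2. Of 15 genes of the TCA cycle, 2 were lower and none was higher. mAcon1, mitochondrial aconitase, had 183 RPKM at day 14, against 897 RPKM at day 8, and SdhB, the iron-sulfur subunit of succinate dehydrogenase, had 48.6 RPKM at day 14, against 142 RPKM at day 8. COX7C, mAcon1, SdhB, UQCR-C2 and ND-B15 have exons that overlap an antisense gene, and the sources do not say if counting was by strand. Of 74 proteins of the mitochondrial ribosome, none was higher and 8 were lower, with a median of −0.43.

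All 11 genes of glycolysis, which turns glucose into pyruvate, were compared. None was higher, 5 were lower under every scaling and 8 were lower with the reads on all genes. The median log2 ratio was −1.24. Their summed level was 868 RPKM at day 14 and 1985 RPKM at day 8. Of the 11 genes, 10 lay below the median of all genes compared.

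The largest differences were those of enzymes in the middle of the pathway and of Pgi. Gapdh1 had 96.8 RPKM (4526 reads) at day 14, against 366 RPKM (13977 reads) at day 8, a log2 ratio of −1.92 (−1.97 to −1.87). Pgk, phosphoglycerate kinase, had 9.97 RPKM at day 14 and 38.7 RPKM at day 8, and Pglym78, phosphoglycerate mutase, had 13.5 RPKM at day 14 and 42.4 RPKM at day 8. Each was lower under every scaling. Tpi, triosephosphate isomerase, had 31.8 RPKM at day 14 and 122 RPKM at day 8. Pgi, which converts glucose 6-phosphate to fructose 6-phosphate, had 113 RPKM at day 14 and 322 RPKM at day 8. These 5 enzymes catalyse reversible steps, as do aldolase (Ald1) and enolase (Eno), whose log2 ratios of −0.46 and −0.81 did not reach the cut-off. Exons of Pgk and Pglym78 overlap an antisense gene.

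The enzymes of the irreversible steps were not called under every scaling. Hexokinase A (Hex-A) had 33.2 RPKM at day 14 and 32.2 RPKM at day 8, a log2 ratio of 0.05. It was the only one of the 11 above 0. Phosphofructokinase (Pfk) had 19.1 RPKM at day 14 and 38.9 RPKM at day 8, a log2 ratio of −1.02, and pyruvate kinase (PyK) had 128 RPKM at day 14 and 290 RPKM at day 8, a log2 ratio of −1.18. Both passed the cut-off with the reads on all genes and not under the other scalings. Across the Esg>yki[S3A] libraries the summed level of glycolysis genes was 7317, 1985, 868, 1431 and 2673 RPKM on days 2, 8, 14, 20 and 26. In control thoraces it was 8897 and 1717 RPKM on days 2 and 14. Most of the distance from day 2 was thus covered by day 8, and a drop of that kind is seen in the controls too. Day 14 of Esg>yki[S3A] was the lowest library of the series.

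All calls among genes for the stores of sugar and fat were lower. All 9 genes of glycogen and trehalose metabolism had a log2 ratio below the median of all genes, and Pgm1, phosphoglucomutase, was lower under every scaling, with 22.7 RPKM at day 14 and 66.4 RPKM at day 8. Glycogen phosphorylase (GlyP), with a log2 ratio of −1.12, passed the cut-off with the reads on all genes only. Of 10 genes of fatty acid synthesis, 3 were lower. FASN2, a fatty acid synthase, had 5.36 RPKM at day 14 and 22.3 RPKM at day 8. FASN1, its broadly expressed relative, had 60.9 RPKM at day 14 and 163 RPKM at day 8, and ATPCL, which supplies cytosolic acetyl-CoA, had 13.4 RPKM at day 14 and 38.9 RPKM at day 8. Of 18 genes of fat storage, lipolysis and beta-oxidation, 2 were lower and none was higher. These were Mtpbeta (13.3 RPKM at day 14 and 38.3 RPKM at day 8), a subunit of the trifunctional enzyme of beta-oxidation, and Arc42 (6.05 RPKM at day 14 and 16.3 RPKM at day 8), an acyl-CoA dehydrogenase. whd, the carnitine palmitoyltransferase that admits fatty acids to mitochondria, had a log2 ratio of −0.95. Of 17 genes of amino acid metabolism, 3 were lower, among them Oat, ornithine aminotransferase, with 1.35 RPKM at day 14 and 5.49 RPKM at day 8.

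**Figure D3:**
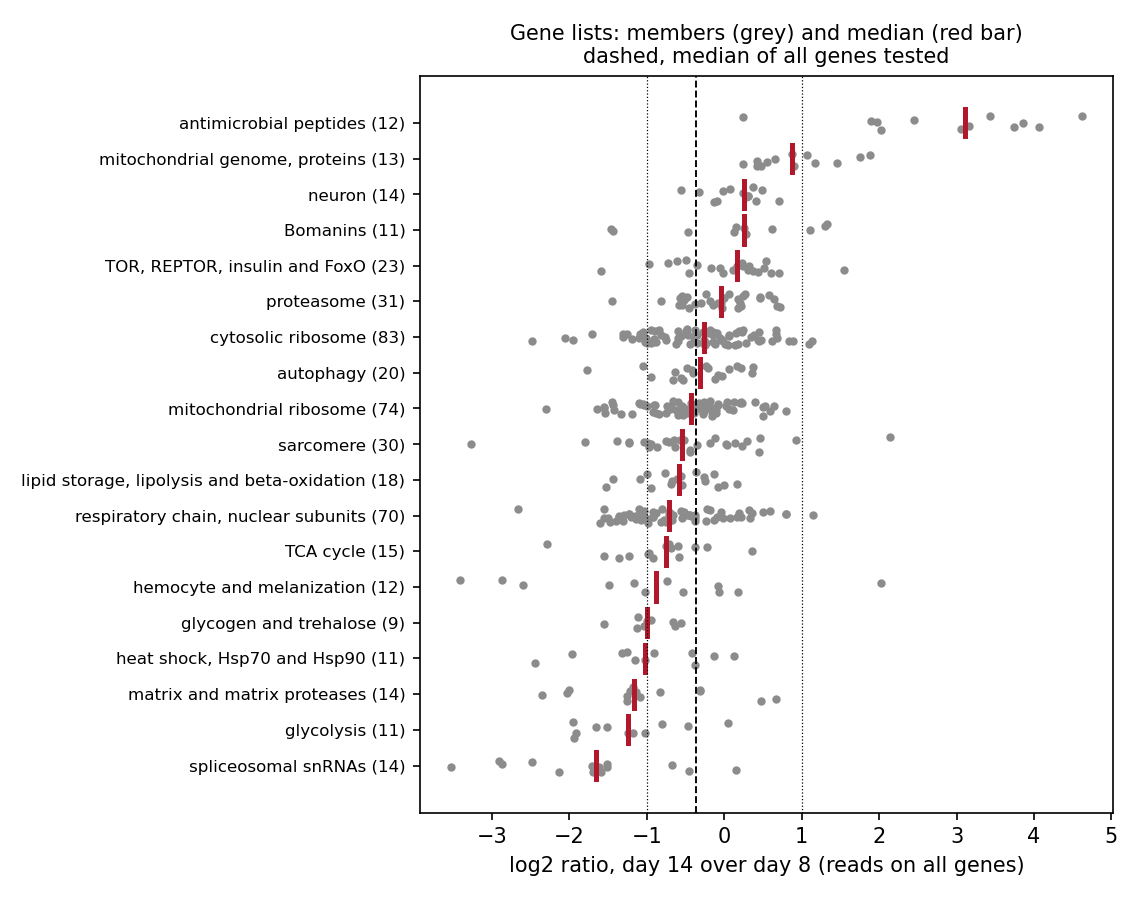
Log2 ratio of day 14 over day 8 for the members of 19 gene lists (grey points, number compared in brackets), with each list's median as a red bar. The dashed line is the median of all genes compared (−0.36). Antimicrobial peptides and proteins of the mitochondrial genome have medians of 3.11 and 0.87, while glycolysis and snRNAs have medians of −1.24 and −1.65.

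Muscle genes were uneven. Of 32 sarcomere genes, 30 were compared, 1 was higher, 3 were lower and the median log2 ratio was −0.55. Act88F, the actin of the indirect flight muscle (chromosome 3R, 15439969 to 15442177), had 194 RPKM (9773 reads) at day 14, against 1876 RPKM (77286 reads) at day 8. Its log2 ratio was −3.27 (−3.30 to −3.24), the largest decrease of any sarcomere gene, and a 9.67-fold difference. Act57B, another muscle actin, had 464 RPKM at day 14 and 1210 RPKM at day 8, and Unc-89, the obscurin of the M-line, had 15.4 RPKM at day 14 and 53.7 RPKM at day 8. These 3 genes were lower under every scaling. Fhos, a formin that assembles actin filaments in muscle and that was not on the sarcomere list, had 16.8 RPKM (5413 reads) at day 14, against 134 RPKM (35423 reads) at day 8, a log2 ratio with an interval of −3.04 to −2.96. Its exons overlap those of another gene on its own strand.

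Other parts of the sarcomere gave smaller values. Muscle myosin heavy chain (Mhc) had 168 RPKM at day 14 and 391 RPKM at day 8, a log2 ratio of −1.22. The titin-like gene sls had 88.3 RPKM at day 14 and 207 RPKM at day 8. Both passed the cut-off with the reads on all genes only. The myosin light chain gene Mlc2 had 2512 RPKM at day 14 and 1833 RPKM at day 8, a log2 ratio of 0.46, and the troponin I gene wupA had 483 RPKM at day 14 and 253 RPKM at day 8, a log2 ratio of 0.93. TpnC4, the flight muscle troponin C, had 526 RPKM at day 14 and 515 RPKM at day 8. Neither thick nor thin filament genes moved as 1 block. TpnC73F, a troponin C of other muscles, was higher, with 2.57 RPKM (86 reads) at day 14 and 0.585 RPKM (16 reads) at day 8.

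Of 6 calcium handling genes compared, 2 were lower: the ryanodine receptor RyR, which releases calcium from the sarcoplasmic reticulum, with 5.92 RPKM at day 14 and 19.9 RPKM at day 8, and the calcium pump SERCA, with 41.7 RPKM at day 14 and 116 RPKM at day 8. In Esg>yki[S3A] thoraces Act88F had 563, 1876, 194, 287, 664, 1230 and 1822 RPKM on days 2, 8, 14, 20, 26, 32 and 38. In controls it had 588, 3048 and 685 RPKM on days 2, 14 and 38. Its lowest level in the series was thus at day 14, and its control levels differed from each other by several-fold as well. Without Act88F the other 5 flight muscle markers gave log2 ratios between −1.22 (Mhc) and 0.23 (Mlp84B).

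**Figure D4:**
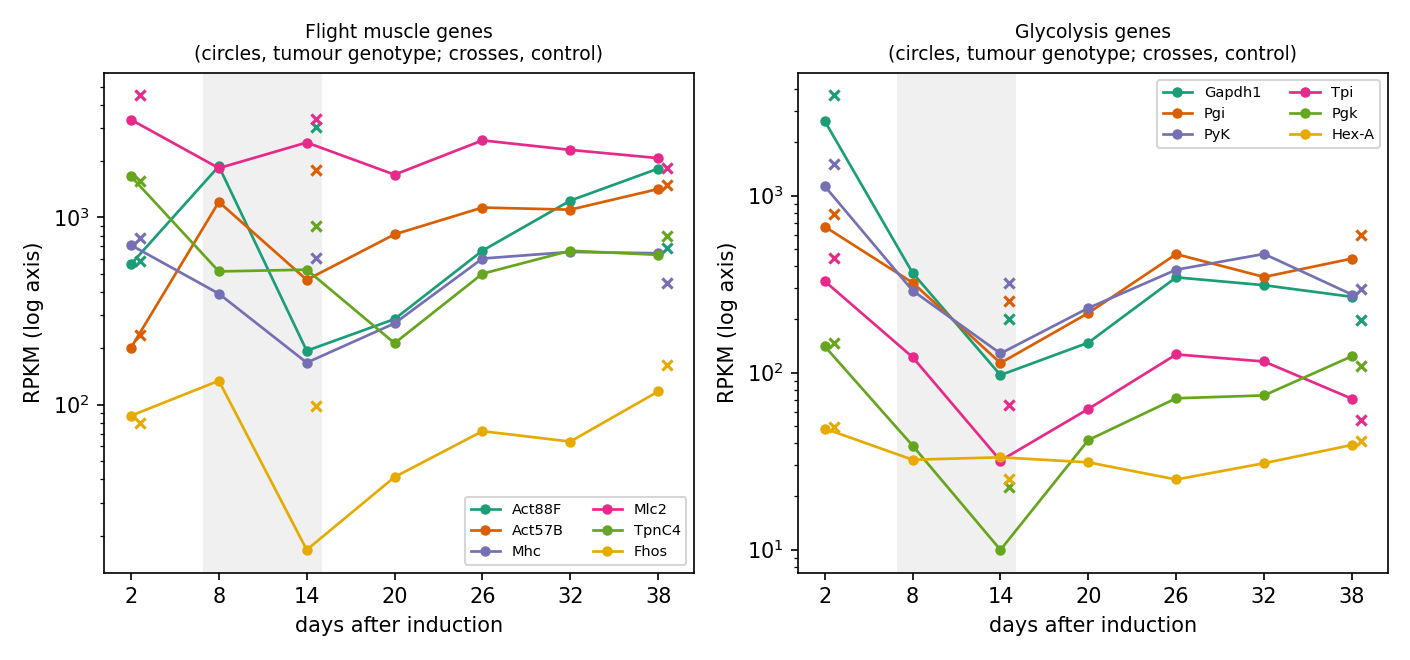
RPKM (log axis) of 6 muscle genes (left) and 6 glycolysis genes (right) by days after induction, 1 library per point, with circles and lines for Esg>yki[S3A] and crosses for control thoraces, and days 8 to 14 shaded. Act88F and Fhos drop sharply in the shaded step and climb again later, TpnC4 is level within that step only, and all glycolysis genes shown except Hex-A are at their lowest at day 14.

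Chaperone genes were lower in part. Of 11 genes of the Hsp70, Hsp90 and Hsp60 groups compared, 2 were lower under every scaling, 6 with the reads on all genes, and none was higher. Their median log2 ratio was −1.03, against −0.36 for all genes compared, and 9 of the 11 lay below the latter. Hsp83, the fly Hsp90, had 296 RPKM (27668 reads) at day 14, against 1159 RPKM (88597 reads) at day 8, and Hsp70Bb, an inducible Hsp70, had 1.996 RPKM (148 reads) at day 14, against 10.9 RPKM (658 reads) at day 8. Hsp70Bb is one of several near copies. The constitutive Hsc70-4 had a log2 ratio of −1.15, past the cut-off with the reads on all genes only. Genes that degrade proteins gave 1 lower call per list, where 5.69% of all genes compared were lower and 2.49% were higher. Of 31 proteasome subunits, Prosalpha5 alone was lower (81.5 RPKM at day 14 and 222 RPKM at day 8), none was higher and the median was −0.04. Of the 31 subunits, 21 lay above the median of all genes compared (−0.36). Of 20 autophagy genes, Atg14, a subunit of the kinase complex that starts autophagosomes, was the 1 lower gene (6.92 RPKM at day 14 and 23.7 RPKM at day 8), and the median was −0.32.

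The cytosolic ribosome gave 2 higher and 4 lower genes of 83, with a median of −0.26. RpS14a and RpS14b, near-identical copies side by side on the X chromosome, had log2 ratios of −2.05 and −2.48, and RpS9 had 134 RPKM at day 14 and 519 RPKM at day 8. RpL35A, one of the higher genes, had 344 RPKM at day 14 and 156 RPKM at day 8. Of 30 aminoacyl-tRNA synthetases none was called under every scaling, and 6 were lower with the reads on all genes.

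Genes of the TOR, insulin and FoxO pathways, which match growth to nutrition, lay above most genes. Of 23 compared, 17 lay above the median of all genes, 1 was higher and 1 was lower, with a median of 0.16. Ilp6, an insulin-like peptide made by the fat body during fasting, had 11.7 RPKM (888 reads) at day 14, against 3.98 RPKM (248 reads) at day 8, a log2 ratio of 1.55 (1.35 to 1.76). raptor, a subunit of TOR complex 1, had 3.24 RPKM (727 reads) at day 14 and 9.76 RPKM (1789 reads) at day 8, and its exons overlap other genes on both strands. REPTOR, a transcription factor that acts when TOR complex 1 is low, had 65.5 RPKM (14748 reads) at day 14, against 40.0 RPKM (7374 reads) at day 8. Its log2 ratio of 0.71 (0.67 to 0.75) did not reach the cut-off with the reads on all genes. In Esg>yki[S3A] thoraces REPTOR had 15.7 RPKM on day 2, 62.4 RPKM on day 20 and between 34.1 and 35.0 RPKM from day 26 on. In controls it had 17.1, 28.6 and 47.7 RPKM on days 2, 14 and 38. Day 14 held its highest level in the series.

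Its partner and other genes followed for their place in this pathway were not called. REPTOR-BP had 143 RPKM at day 14 and 145 RPKM at day 8. The log2 ratio was 0.24 for foxo, 0.25 for Thor, the translation inhibitor 4E-BP, and 0.37 for ImpL2, a secreted protein that binds insulin-like peptides. CG42390 and RhoGAP68F had log2 ratios of −0.53 and −0.78. With the other scalings each of these values moves up by 0.35 to 0.38, which takes REPTOR to the cut-off (1.06 with the reads without mitochondrial genes) and leaves the other genes under it.

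No fat body or neuron marker was called, but the list of fat body products had a low median. The fat body markers summed to 760 RPKM at day 14 and 784 RPKM at day 8, nearly all of it from apolpp, the main lipoprotein, with 3 of 5 markers under 1 RPKM in both libraries. Of 16 fat body products 7 were compared, 1 was higher and 2 were lower. Their median log2 ratio was −0.87, against −0.36 for all genes compared. The feeding-related gene to (takeout) had 7.02 RPKM (278 reads) at day 14 and 3.06 RPKM (99 reads) at day 8. Obp99b had 2.29 RPKM (43 reads) at day 14 and 11.01 RPKM (169 reads) at day 8, and fit, a satiety signal after protein meals, had 10 reads at day 14 and 36 reads at day 8. Of 14 neuronal genes none was called, 13 lay above the median of all genes compared and the median log2 ratio was 0.26. The largest neuronal value was that of cpx, the synaptic protein complexin, at 0.71. The 7 glial genes gave no call either. Of 8 clock genes, cry, the blue-light receptor cryptochrome, was lower, with 16.9 RPKM at day 14 and 55.9 RPKM at day 8. The hour of dissection is not given in the sources used here, and the other 7 clock genes were not called.

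Detoxification genes gave calls in both directions, where 2.49% of all genes compared were higher and 5.69% were lower. Of 58 cytochrome P450 genes, 2 were higher, 4 were lower and 19 lay above the median of all genes compared. Cyp6a8 had 5.05 RPKM at day 14 and 1.46 RPKM at day 8, while Cyp309a1 had 0.745 RPKM at day 14 and 3.37 RPKM at day 8. Of 25 glutathione S-transferases, GstE13 and GstE12 were lower and none was higher. No member was called among 16 ecdysone-response and nuclear receptor genes, 8 genes of the Hippo pathway and its targets, and 7 apoptosis genes.

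Some of the largest changes of protein-coding genes belonged to none of these groups. The gene piwi, whose product binds small RNAs that silence transposons, chiefly in the germ line, had 216 RPKM (21000 reads) at day 14, against 48.9 RPKM (3884 reads) at day 8, a log2 ratio of 2.14. It had 24.5 RPKM at day 2 and between 156 and 335 RPKM from day 20 on, and controls had 14.6, 117 and 302 RPKM on days 2, 14 and 38, so it was higher in later libraries of both genotypes. fau had 64.5 RPKM at day 14 and 14.99 RPKM at day 8, and was at 31.9 RPKM in the control of day 14. CG4269 had 20.5 RPKM at day 14 and 3.19 RPKM at day 8. Exons of piwi and CG4269 overlap an antisense gene, and those of fau overlap a gene on its own strand.

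Lower genes outside the lists included Tspo, the translocator protein of the outer mitochondrial membrane, with 39.0 RPKM (1051 reads) at day 14, against 317 RPKM (6975 reads) at day 8. Ntl, a transporter of the neurotransmitter family, had 4.83 RPKM at day 14 and 41.4 RPKM at day 8, and Jheh3, a juvenile hormone epoxide hydrolase, had 3.29 RPKM at day 14 and 25.8 RPKM at day 8. CG15617 had 33.3 RPKM at day 14 and 233 RPKM at day 8, and CG4000 had 39.8 RPKM at day 14 and 296 RPKM at day 8. Of these, CG15617 alone has no exon overlap with another gene. CG15617 stayed under 35 RPKM in all later Esg>yki[S3A] libraries (14.3 at day 20 and 22.6 at day 38), whereas CG4000 was back at 177 RPKM by day 20.

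Small noncoding RNAs held most of the largest decreases. Among the 15 genes with the largest decrease, 9 were small nucleolar or Cajal body RNAs, 3 were tRNAs and 1 was an snRNA. snoRNA:U3:9B, 1 of 3 copies compared of the U3 RNA that processes ribosomal RNA, had 42.4 RPKM (285 reads) at day 14, against 1533 RPKM (8433 reads) at day 8, a log2 ratio of −5.18. It stood at 1133 RPKM at day 20, and at 151 RPKM in the control of day 14. The other copies, snoRNA:U3:54Aa and snoRNA:U3:54Ab, had log2 ratios of −0.29 and −0.33, near the median of all genes compared. snoRNA:Or-CD2 had 258 RPKM (1139 reads) at day 14 and 5763 RPKM (20842 reads) at day 8. In the other Esg>yki[S3A] libraries it lay between 1656 RPKM (day 2) and 16180 RPKM (day 38), and in controls between 1075 and 7498 RPKM. Summed over the list, snoRNAs ran from 12740 RPKM (control of day 2) to 99650 RPKM (Esg>yki[S3A] at day 20). Levels of these RNAs thus varied widely between other libraries too. Of 14 spliceosomal snRNAs none was higher and 11 were lower, with a median of −1.65, among them U12 and U11 of the minor spliceosome (snRNA:U12 with 33 reads at day 14 and 310 at day 8). Of 36 nuclear tRNA genes, 2 were higher and 15 were lower.

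Small nucleolar RNAs were divided by kind. Of 232 small nucleolar and Cajal body RNAs, 63 were higher and 35 were lower, both shares above those of all genes. Guides of 2′-O-methylation gave 30 higher and 2 lower genes of 61, with a median log2 ratio of 0.99 and a median length of 79 bases. Guides of pseudouridylation gave 17 higher and 21 lower genes of 102, with a median of −0.03 and a median length of 140 bases. Cajal body RNAs gave 1 higher and 4 lower genes of 14. snoRNA:Me28S-U2134b, a methylation guide, had 493 RPKM (1200 reads) at day 14 and 80.9 RPKM (161 reads) at day 8, and snoRNA:Psi18S-301, a pseudouridylation guide, had 503 RPKM (2194 reads) at day 14 and 109 RPKM (388 reads) at day 8. Kind and length go together here. All 81 RNAs under 100 bases had a median of 0.99, the 117 RNAs from 130 to below 160 bases one of 0.003, and the part of length in the split was not tested.

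**Figure D5:**
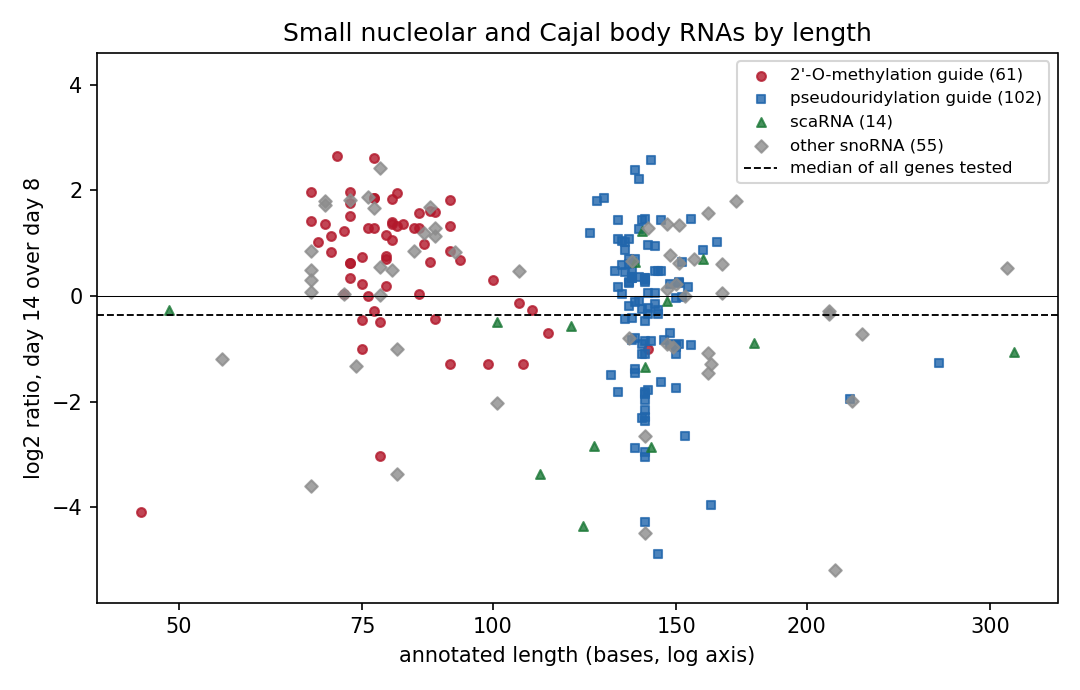
Log2 ratio of day 14 over day 8 against annotated length in bases (log axis) for 232 small nucleolar and Cajal body RNAs, by kind. The dashed line is the median of all genes compared (−0.36). Guides of 2′-O-methylation cluster under 100 bases and mostly above 0, and guides of pseudouridylation near 140 bases spread on both sides.

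Nuclear protein-coding genes were also divided by length. The median log2 ratio was −0.06 for 171 genes with under 500 exonic bases, −0.21 for 1002 genes from 500 to below 1000 bases, −0.44 for 2450 genes from 1000 to below 2000 bases, −0.38 for 3028 genes from 2000 to below 5000 bases and −0.36 for 1221 longer genes. Calls in both directions were most frequent among the shortest, with 22 higher and 16 lower genes of 171, and rarest among the longest, with 2 higher and 23 lower genes of 1221.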

How the data were processed

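Total RNA of pooled thoraces was depleted of rRNA, sequenced as 4 pools per library and aligned by the authors with STAR, to the FlyBase genome by the study's methods. The submitters' processing notes name the mouse build mm10 instead, while the gene identifiers are those of FlyBase. The deposited values are estimated counts per gene in multiples of 0.25, which fits a mean over the 4 pools, and were multiplied by 4 to give reads. The counting program and its use of strand are not given in the sources used here. Exon overlaps are pointed out above for some genes only. Others, such as DptB, AttC, Pxn, cry, Hsp83 and RpS9, also overlap another gene. The authors named DESeq2 for differential expression, but their fold changes were not used. RPKM was computed from reads on all genes and merged exon lengths of the Ensembl annotation (99.7% of gene identifiers matched). Genes that reached 2 RPKM in either library were compared on the log2 ratio, with reads raised to a floor of 3, and no test was made because each condition is 1 library. The cut-off with the reads on all genes was checked on simulated reads. The rule that a gene pass under every scaling was not checked in this way. Size factors came from edgeR 4.0.16 and DESeq2 1.42.0.

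Named genes are the 15 with the largest ratio in each direction among genes with at least 10 RPKM, up to 5 called members of each of 47 gene lists in each direction, genes the study follows, yki and mt:CoI. Ranking protein-coding genes alone, the rule of all 5 scalings, and Fhos, Drs, Mlc2, wupA, TpnC4, cpx, AttD, CecB, Timp and the other uncalled genes were chosen after their values were seen. The members and lists were chosen with earlier results of these data known. Alternatives were other scalings, minimums of none and 10 RPKM, a pseudocount of 1 RPKM and a cut-off of 1.3.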

Additional observations from a re-analysis of the deposited data

How the results depend on the processing

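Counts of genes past the cut-off depended on scaling. Higher and lower genes at day 14 numbered 209 and 1216 with the reads on all genes, 530 and 569 with the reads without mitochondrial genes, 552 and 567 when scaled to protein-coding reads of the nucleus, 508 and 470 with edgeR's TMM, and 496 and 492 with DESeq2's median of ratios. The median log2 ratio, −0.36 with the reads on all genes, was −0.005, 0.007, 0.027 and 0.01 in the same order of scalings, with the minimum applied anew in each. For the first 2 of these the construction gives the shift, since the mitochondrial reads leave the total, and for TMM and median of ratios the cause was not tested. All 209 higher genes and 513 of the 1216 lower genes were also past the cut-off without mitochondrial reads. Without a minimum, 410 genes were higher and 1955 lower, and with a minimum of 10 RPKM 130 and 704, as more or fewer genes entered. A cut-off of 1.3 left 113 and 568. A pseudocount of 1 RPKM gave 166 and 830. Added after seeing the data, the rule of all 5 scalings left 478 lower genes, and leaving out genes whose exons overlap another gene gave 166 higher and 757 lower. Of 188 named genes past the cut-off, 142 stayed past it under every scaling, and the ranked genes among them had been chosen by that rule. None of the 188 could change sign. The other scalings add at most 0.38 to a log2 ratio, and a pseudocount keeps the order of both levels. No paired analysis was possible because each condition is 1 library, and for the same reason no library could be left out. Small counts limit the antimicrobial peptide ratios, since several had fewer than 15 reads at day 8, and those of some tRNAs.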

Other observations

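A run of neighbouring genes on chromosome 2R was lower at day 14 than at day 8, a pattern chosen after the values were seen. Between positions 23355183 and 23360266 of the Release 6 assembly lie Rpi, CG3500, CG9875, asRNA:CR44168, CG34423 and Mthfs, and all of these passed the cut-off under every scaling. CG3500 had 20.3 RPKM (609 reads) at day 14, against 148.5 RPKM (3637 reads) at day 8, and between 15.4 and 27.1 RPKM in the other 8 libraries, so day 8 was the library that stood out for this gene. Rpi had 2.82 RPKM at day 14, 8.49 RPKM at day 8 and between 6.46 and 12.3 RPKM in the other 8 libraries, so day 14 stood out instead. CG9875 had 3.12 RPKM (72 reads) at day 14 and 21.2 RPKM (399 reads) at day 8. CG34423 had 155 RPKM at day 14 and 521 RPKM at day 8, and Mthfs, an enzyme of folate metabolism, had 20.8 RPKM at day 14 and 81.9 RPKM at day 8. In the controls of days 14 and 38, CG34423 had 913 and 1355 RPKM. The genes thus did not share 1 pattern over all libraries. The next gene, vir, had a log2 ratio of −0.95. Several of these genes overlap on opposite strands, so reads of one may have been counted for another, which was not tested.

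Long noncoding RNAs gave 17 higher and 22 lower genes of 177 compared. Their summed level was 9647 RPKM at day 14, the highest of the 10 libraries, against 6632 RPKM at day 8.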
